A study of Saccharomyces cerevisiae with 10 samples.

Results

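The Ras proteins of Saccharomyces cerevisiae and the proteins that switch them on and off were followed through 9 genes: RAS1 and RAS2, which encode the Ras GTPases, CDC25 and SDC25, which encode exchange factors, IRA1 and IRA2, which encode GTPase activators, and GPR1, GPA2 and RGS2, which make up the glucose receptor branch. The genes were found by matching symbols and aliases in the platform annotation, without use of any measured value. They lie on 10 of the 6277 rows of the table, because both YLL016W and the neighbouring YLL017W carry the name SDC25. Of these 10 rows 6 had enough values for the test, among 5642 genes or unnamed rows tested in all.

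Total RNA of the strains DJ28 and FY23 was compared directly on 10 arrays with 2 dyes. DJ28 carried Cy3 and FY23 Cy5 on arrays 1 to 5, and the dyes were swapped on arrays 6 to 10. The series title speaks of a mutant in which the Ras/cAMP pathway is constitutively active, and PDE2 is among the keywords of each sample. No source used here states the alleles of DJ28 and FY23, their growth conditions or the number of cultures, so the p-values rest on array-to-array variation that could be technical alone.

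In yeast, Ras bound to GTP stimulates adenylate cyclase, and the cyclic AMP that it makes frees the catalytic subunits of protein kinase A from their inhibitor. Cdc25 loads Ras with GTP, and Ira1 and Ira2, which are related to human neurofibromin, speed the hydrolysis of that GTP. A parallel input comes from the glucose receptor Gpr1 and its G protein alpha subunit Gpa2, which Rgs2 switches off. The phosphodiesterases Pde1 and Pde2 break down cyclic AMP. Ras activity is set mostly by the bound nucleotide, which transcript arrays do not measure.

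The direction of the ratio has to be stated before any value. The sources used here do not name the numerator dye, and the deposited ratios were read as Cy5 over Cy3, the likely reading, since PDE2 is then lower in DJ28. This assumes that DJ28 is the mutant and that it has lost PDE2, and if the ratio runs the other way every higher and lower turns while sizes and p-values stay. All values below are log2 ratios of DJ28 over FY23 with the array's median subtracted, and they are differences between strains, not levels. The 2-colour ratios give no level of a transcript, so the members cannot be ordered by abundance.

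The arrays were not equally complete. Arrays 3 to 10 held values for 7 to 10 of the 10 rows, while array 2 held 2 and array 1 held only that of IRA1. Over the whole table arrays 6 and 7 had a correlation of r = 0.988, while no other pair exceeded 0.694, and they entered as 1 averaged replicate of 9. Some cells of arrays 4, 5, 9 and 10 lay at the highest value the scale allows, so these arrays were also examined as a separate set, although no label gives a batch. No cell of the 10 rows lay at that limit. PDE2, the basis of the direction, ranged from -2.50 to -0.997 over 8 replicates and was below 0 on all of them.

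No tested member passed the test for a difference between the strains. Among RAS1, RAS2, IRA1, GPR1, GPA2 and RGS2, 0 of 6 passed limma's test at an adjusted p under 0.05, where 0.549% of all genes tested did. At an unadjusted p under 0.05 the count was also 0 of 6, against 13.3% of all genes. In the exact permutation test of the dye orientation labels 0 of 6 had a p under 0.05, a level that the 7 replicates of RAS2, GPR1, GPA2 and RGS2 cannot reach (smallest p 0.0571). The median of the 6 differences was -0.03, beside 0.03 over all genes tested. Of the 6, 2 were positive and 4 negative, beside 3167 positive and 2475 negative over all genes tested. The ratios of the dye orientations, taken before the sign was turned, overlapped for all 6, so that 0 of 6 were separated, against 8.12% of all genes.

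**Figure D1:**
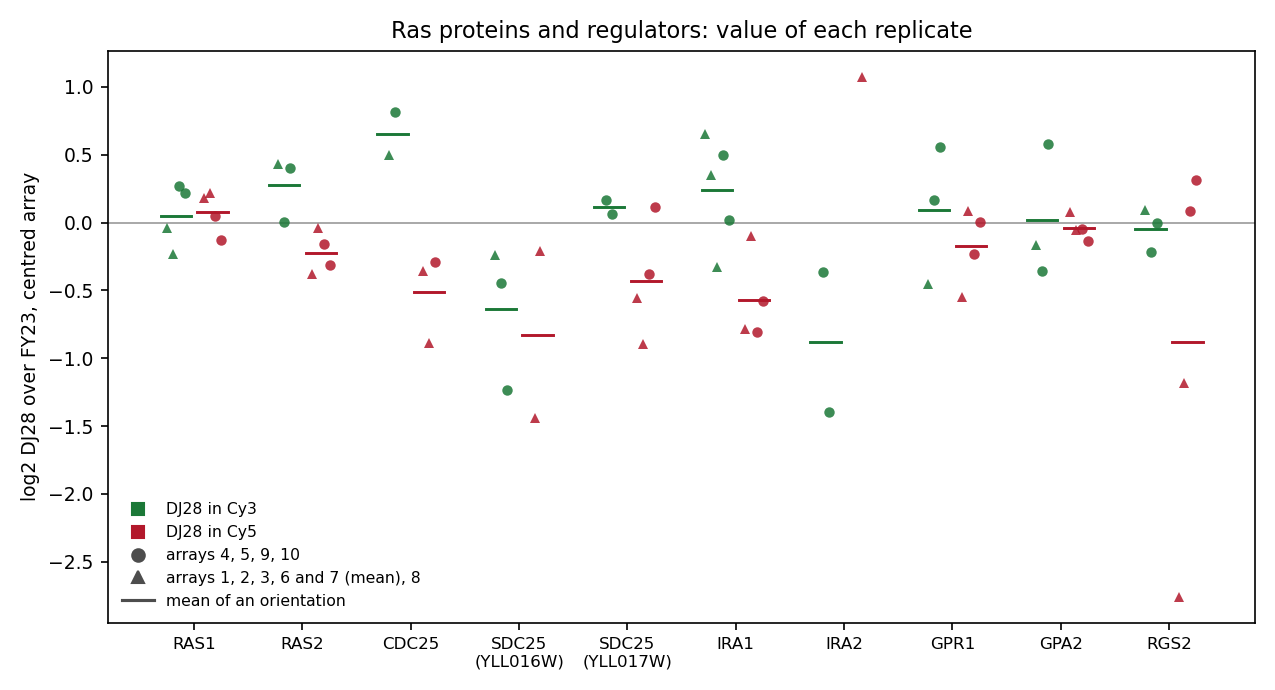
Log2 ratio of DJ28 over FY23 (vertical axis) for each replicate of the 10 rows, in green with DJ28 in Cy3 and in red with DJ28 in Cy5. Circles are arrays 4, 5, 9 and 10, triangles the other arrays (arrays 6 and 7 as their mean), and bars are means of an orientation. The values of RAS1 lie between -0.23 and 0.27, while those of RGS2 reach -2.76.

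RAS1 and RAS2 encode GTPases that share an essential function in yeast, either being sufficient for growth. For RAS1 (YOR101W) the replicates with DJ28 in Cy3 read -0.04 on array 2, -0.23 on array 3, 0.27 on array 4 and 0.21 on array 5. For DJ28 in Cy5 they read 0.18 on the mean of arrays 6 and 7, 0.22 on array 8, 0.05 on array 9 and -0.13 on array 10. Both orientations thus lay on both sides of 0, with 5 of 8 replicates above it. The fitted difference was 0.07 with a standard error of 0.100 (adjusted p = 0.792), and its 95% confidence interval ran from 0.897-fold to 1.22-fold. The standard error was smaller than that of 90.4% of the genes tested, which makes RAS1 the most closely measured of the tested members.

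RAS2 (YNL098C) had 7 values. With DJ28 in Cy3 they were 0.43 on array 3, 0.00 on array 4 and 0.40 on array 5. With DJ28 in Cy5 they were -0.38 on the mean of arrays 6 and 7, -0.04 on array 8, -0.16 on array 9 and -0.32 on array 10. Every turned value with DJ28 in Cy3 was thus above every value with DJ28 in Cy5, although that of array 4 was close to 0. The turned values of the orientations were separated in this way for 1 of 6 members, RAS2, and for 17.4% of all genes tested. The strain difference was 0.03 with a standard error of 0.110 (adjusted p = 0.928), and the interval ran from 0.859-fold to 1.21-fold. The dye effect of RAS2 was -0.25 with a standard error of 0.110 and did not pass limma's test (adjusted p = 0.213).

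RAS1 and RAS2 were also set against each other on the same array, which removes the centring. RAS1 minus RAS2 was 0.05 over the 7 replicates that had both, and the ratios before turning had standard deviations of 0.465 on arrays 3 to 5 and 0.177 on arrays 6 to 10. The exact two-sided permutation test gave p = 0.743, and 0.857 after adjustment over the 3 pairs compared. GPR1 minus GPA2, the receptor against its G protein, was -0.03 (exact permutation p = 0.857), and GPA2 minus RGS2 was 0.45 (exact permutation p = 0.457). With 7 replicates each pair could reach at best a p of 0.0571.

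IRA1 (YBR140C) was the member with a value on every array. With DJ28 in Cy3 it read 0.65, 0.35, -0.32, 0.50 and 0.02 on arrays 1 to 5. With DJ28 in Cy5 it read -0.78 on the mean of arrays 6 and 7, -0.10 on array 8, -0.81 on array 9 and -0.58 on array 10. The values with DJ28 in Cy5 were all below 0, while 4 of the 5 values in the other orientation were above it. The turned values of the orientations overlapped only in that array 3 lay below array 8. The strain difference was -0.16 with a standard error of 0.123 (adjusted p = 0.563), with an interval from 0.740-fold to 1.08-fold. The dye effect, -0.40 with a standard error of 0.123, was larger than the strain difference, and its adjusted p was 0.0933. No member passed limma's test for a dye effect, against 3.05% of all genes, and 2 of 6, IRA1 and RAS2, had an unadjusted p under 0.05, against 23.1% of all genes. The adjusted count depended on the setting for IRA1, whose dye effect passed with all 10 arrays counted apart (-0.43, adjusted p = 0.0348).

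IRA2 (YOL081W), the paralogue of IRA1, had values on 3 arrays and was not tested. They were -0.37 on array 4 and -1.39 on array 5, both with DJ28 in Cy3, and 1.07 on array 8, with DJ28 in Cy5. Before turning, all 3 centred ratios were above 0, only 1 of them with DJ28 in Cy5. A dye effect of IRA2 was not tested.

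CDC25 (YLR310C) encodes the main exchange factor of Ras and had 5 replicates with a value, 2 of them with DJ28 in Cy3, below the 3 required. It read 0.50 on array 3 and 0.82 on array 4 with DJ28 in Cy3. After the swap it read -0.36 on the mean of arrays 6 and 7, -0.89 on array 8 and -0.29 on array 10. The turned values of the orientations did not overlap, and their means had opposite signs, 0.66 and -0.51. The share of 17.4% holds for the genes tested, which have at least 3 replicates of each orientation. For rows with as few values as CDC25 the share is not given here. Before turning, the ratios of the orientations did overlap. With the requirement lowered to 2 replicates of each orientation the difference was 0.07 with a standard error of 0.156 (adjusted p = 0.870).

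SDC25 is a paralogue of CDC25 whose product can also act on Ras, and both of its rows are annotated as pseudogenes in the R64 gene table of the reference strain. On the row of YLL016W the values were -0.24 on array 3, -0.45 on array 4 and -1.23 on array 5 with DJ28 in Cy3. With DJ28 in Cy5 they were -1.44 on the mean of arrays 6 and 7 and -0.21 on array 8. All 5 values were below 0, in both orientations, the only row of the 10 for which this held. The share of all genes with values on 1 side of 0 alone is not given here. On the row of YLL017W the values were 0.16 on array 4 and 0.07 on array 5 with DJ28 in Cy3. In the other orientation they were -0.56 on the mean of arrays 6 and 7, -0.90 on array 8, -0.38 on array 9 and 0.12 on array 10. This second row lay on both sides of 0, and its turned values overlapped between orientations only in that array 10 lay above array 5.

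Neither row of SDC25 met the requirement of 3 replicates. With 2 replicates of each orientation required, YLL016W had a difference of -0.73 with a standard error of 0.235, and limma gave an unadjusted p of 0.0168 and an adjusted p of 0.313. It therefore did not pass. YLL017W had a difference of -0.16 with a standard error of 0.160 (adjusted p = 0.696). With the rows averaged, a step chosen after the data were seen, the difference was -0.39 with a standard error of 0.145 (adjusted p = 0.348). Under the lower requirement 0 of 9 rows passed, against 0.479% of 6058 genes. At an unadjusted p under 0.05 limma counted 1 of 9 rows, YLL016W, against 770 of the 6058 genes. The exact permutation test of YLL016W could not go below p = 0.200.

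**Figure D2:**
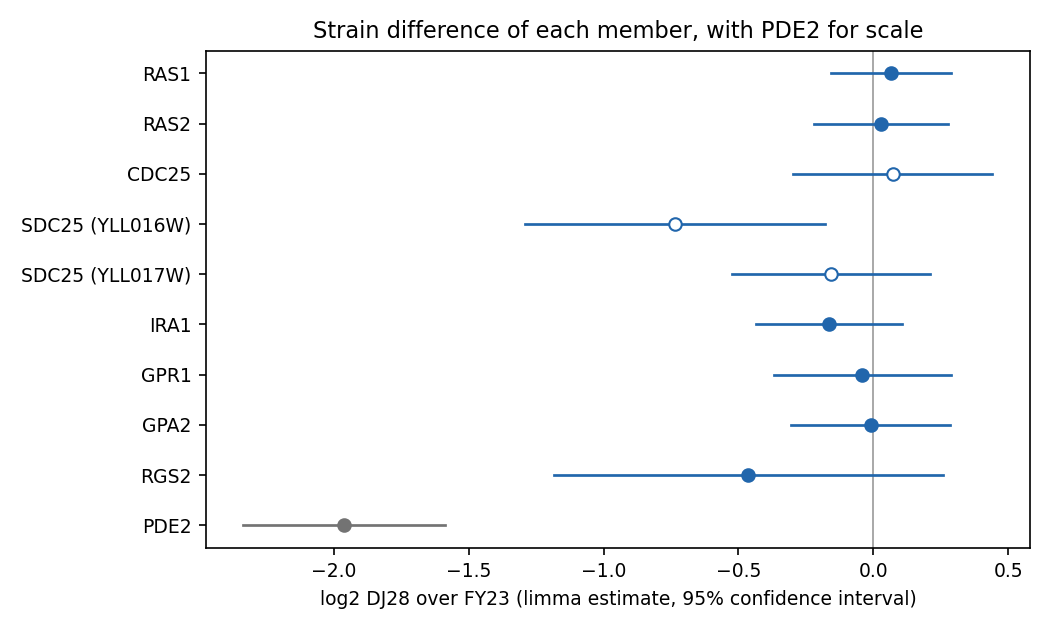
Strain difference of each member as log2 of DJ28 over FY23 (horizontal axis), with 95% confidence intervals from limma. Filled points had 3 or more replicates of each orientation, open points 2 in at least 1 of them, IRA2 had too few values, and PDE2 in grey, at -1.96, is shown for scale. Each interval of a filled blue point holds 0, while that of the open point of SDC25 (YLL016W), from -1.29 to -0.178, does not.

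In the glucose receptor branch, the fitted differences of GPR1 and GPA2 were small. GPR1 (YDL035C), the receptor, read -0.46 on array 3, 0.17 on array 4 and 0.56 on array 5 with DJ28 in Cy3. In the swapped orientation it read -0.55 on the mean of arrays 6 and 7, 0.08 on array 8, -0.23 on array 9 and 0.01 on array 10. Both orientations spanned 0 and overlapped widely. The difference was -0.04 with a standard error of 0.145 (adjusted p = 0.922), and the interval ran from 0.775-fold to 1.22-fold.

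GPA2 (YER020W), the alpha subunit, read -0.16 on array 3, -0.36 on array 4 and 0.58 on array 5. In the other orientation it read 0.08 on the mean of arrays 6 and 7, -0.06 on array 8, -0.05 on array 9 and -0.14 on array 10, a spread of 0.0892 (SD, n = 4) that lay within that of the first orientation, 0.494 (SD, n = 3). The difference was -0.01 with a standard error of 0.131 (adjusted p = 0.977), and 96.0% of the genes tested differed by more. Its interval ran from 0.809-fold to 1.22-fold.

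RGS2 (YOR107W), which encodes the GTPase activator of Gpa2, had the widest spread of the 6 tested members. With DJ28 in Cy3 it read 0.09 on array 3, -0.22 on array 4 and 0.00 on array 5. With DJ28 in Cy5 it read -2.86 on array 6, -2.66 on array 7 and -1.18 on array 8, but 0.09 on array 9 and 0.32 on array 10. Arrays 6, 7 and 8 thus stood far below 0, while the remaining 5 lay close to it, and 2 arrays of the same orientation as the low ones were above 0. The fitted difference was -0.46 with a standard error of 0.321, corresponding to a 1.38-fold lower ratio in DJ28 (adjusted p = 0.536). Only 4.93% of the genes tested had a larger absolute difference, and only 2.30% a larger standard error. The interval ran from 0.440-fold to 1.20-fold, so it holds both no difference and a ratio well below 1. Without arrays 6 and 7 the difference was -0.15, and with array weights it was -0.09.

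The low values of RGS2 lay in 1 array set. In the second set array 3 is the one array with DJ28 in Cy3 that has a value for RAS2, GPR1, GPA2 and RGS2, so those fits assume that it varies like the others. Within arrays 4, 5, 9 and 10 its difference was 0.05 with a standard error of 0.103 (adjusted p = 0.840), and within the remaining arrays it was -0.94 with a standard error of 0.337 (adjusted p = 0.540). The first set minus the second was 0.98 with a standard error of 0.382, which had an unadjusted p of 0.0354 in limma and did not pass after adjustment (adjusted p = 0.732). For GPR1 the corresponding values were 0.125 and -0.34, and their difference, 0.47, did not pass either (adjusted p = 0.732). RAS1, RAS2, IRA1 and GPA2 had differences between the sets from -0.13 to 0.08. None of the 6 members passed this test, against 0.0177% of 5641 genes. What sets arrays 6 to 8 apart for RGS2 was not tested.

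**Figure D3:**
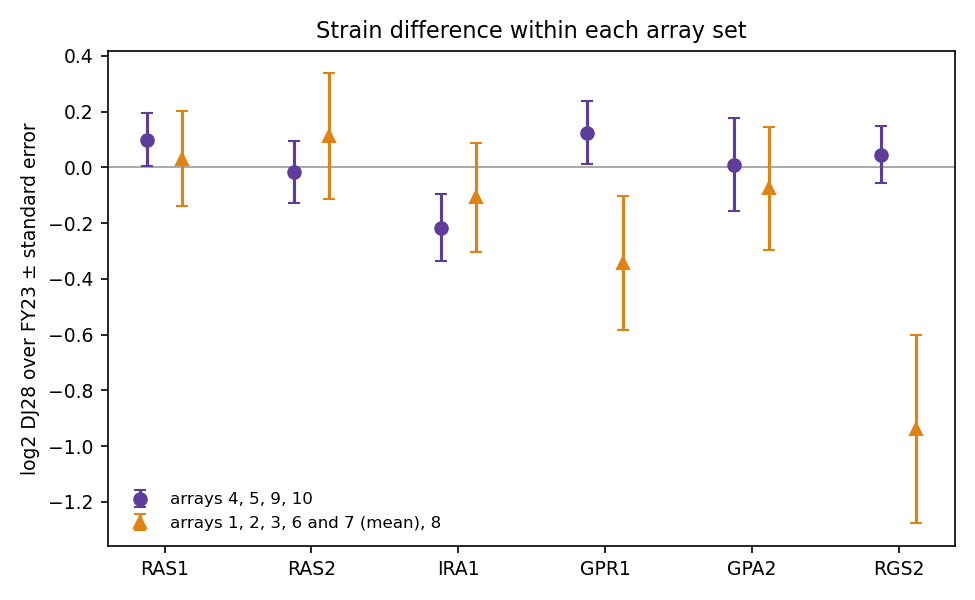
Strain difference as log2 of DJ28 over FY23 (vertical axis) with standard errors from limma, fitted within arrays 4, 5, 9 and 10 (purple circles) and within arrays 1, 2, 3, 6, 7 and 8 (orange triangles). RGS2 reads 0.05 in the first set and -0.94 in the second, while the RAS1, RAS2, IRA1 and GPA2 estimates lie within about 1 standard error of each other.

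Among the 6 members with 3 or more replicates of each orientation RGS2 had the lowest unadjusted p, 0.181, and the genes most like it across replicates were sought. Over the 7 replicates made of arrays 3 to 10, among 5064 other genes with a value on each, the highest Pearson correlations with RGS2 were those of SNO4 (r = 0.986), HTL1 (r = 0.982) and SNX3 (r = 0.970). SNO4 encodes a member of the Hsp31 family, HTL1 a component of a chromatin remodelling complex and SNX3 a sorting nexin. SNO4 read -2.59 on the mean of arrays 6 and 7 and -0.50 on array 8, and between 0.50 and 0.76 on each other array. HTL1 and SNX3 read -0.96 and -0.57 on the mean of arrays 6 and 7. The 7 points share their arrays and 2 of them carry most of the variation, and 51 genes correlated above 0.9, so the likeness is a description of these arrays. None of these 3 genes passed the strain test (adjusted p = 0.946, 0.912 and 0.806).

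Genes that act beside the Ras proteins were compared in the same fit. Of the enzymes that attach lipids to Ras and carry it to the membrane, 0 of 6 tested passed. Their median was 0.15, and 5 differences were positive, beside 3167 of all 5642 genes tested. The largest were those of RCE1, the protease that trims farnesylated proteins, at 0.68 (standard error 0.180, adjusted p = 0.178), and STE14, the methyltransferase that acts after it, at 0.39 (standard error 0.129, adjusted p = 0.275). STE14 was above 0 on 8 of 8 replicates. RCE1 was not so even: its mean was 1.43 on arrays 1 to 5 and -0.08 after the dye swap.

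Among partners and modulators of Ras and Gpa2, 0 of 5 tested passed, and the median was 0.05. TFS1, whose product inhibits Ira2, had a difference of 0.53 with a standard error of 0.286 (adjusted p = 0.440). GPB2, a kelch protein that acts with Gpa2, had one of -0.26 with a standard error of 0.116 (adjusted p = 0.369). In these members as in the lipid enzymes, no difference passed limma's test after adjustment over all genes tested. Before adjustment, limma's confidence intervals excluded 0 for RCE1 (0.279 to 1.076), STE14 (0.106 to 0.679) and GPB2 (-0.52 to -0.007). The intervals of the other tested genes of both lists held 0.

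Of adenylate cyclase, the phosphodiesterases and protein kinase A, only PDE2 of 5 tested genes passed, at -1.96 (standard error 0.168, adjusted p = 0.00153). All 5 differences lay below 0, that of PDE2 by the choice of direction, as did 2475 of all 5642 genes tested. The list median was -0.21. CYR1, which encodes adenylate cyclase, the target of Ras, was next at -0.30 (standard error 0.128, adjusted p = 0.360), and was below 0 on 6 of 7 replicates. TPK3 had no value on any array.

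The pheromone pathway holds a receptor and G protein of the same classes as Gpr1 and Gpa2. In its receptor and G protein module 0 of 8 passed, with a median of 0.06. The largest differences there were those of GPA1, the alpha subunit of the pheromone G protein, at 0.31 (adjusted p = 0.353), and STE2, the receptor of alpha-factor, at 0.29 (adjusted p = 0.345). At an unadjusted p under 0.05 limma counted 2 of 6 lipid enzymes, 1 of 5 partners, 2 of 5 genes of the cyclase list and 2 of 8 genes of the pheromone module, beside 13.3% of all genes tested.

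**Figure D4:**
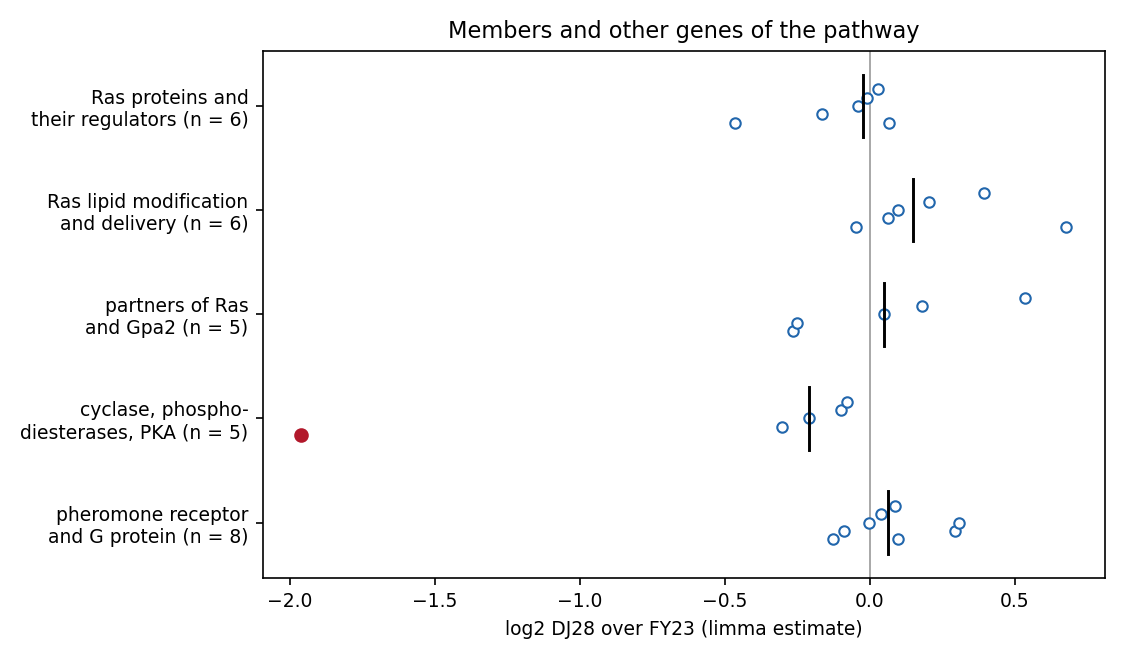
Strain difference of each tested gene as log2 of DJ28 over FY23 (horizontal axis) for the Ras proteins and their regulators and 4 other gene lists. Open circles did not pass limma's test, the filled red circle, PDE2 at -1.96, did, and black bars are list medians, which lie between -0.21 and 0.15.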

How the data were processed

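The deposited table of the authors holds log2 ratios of the 2 dyes of each array. The log2 scale was read from the values, which take both signs and end at a fixed upper limit. Background correction, normalization and filtering by the authors: not given in the sources used here. Names come from the platform annotation (5663 rows) and the R64 gene table, which served for names alone. The build behind the array is not named, so no coordinates are given.

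Values at that limit became missing, arrays were centred on their medians, rows of a gene were averaged, and arrays 6 and 7 were averaged. Genes with at least 3 replicates of each orientation entered a linear model in limma 3.58.1 under R 4.3.3 (a dye term and a strain term, eBayes), with Benjamini-Hochberg adjustment over all 5642 genes and a threshold of 0.05. Fits that leave out arrays kept those of these genes that could still be fitted, 5610 and 5519 within the array sets. Median standard error was 0.131, and the number of arrays limits precision. Steps were tested on simulated data. Members and lists were chosen with earlier results of these data known. All members are named, and from each other list reported the genes past the test and the 2 largest absolute differences. 1 planned list and 1 gene are not reported here.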

Additional observations from a re-analysis of the deposited data

How the results depend on the processing

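The count of 0 members past the strain test held under all 29 alternatives run, of which that with a value on every replicate tested IRA1 alone of the 6, and the median of the tested members stayed between -0.20 and 0.07. The count over all genes, 31, was 79 with all 10 arrays apart (14 higher, 65 lower), 4 with no centring (0 higher, 4 lower), 156 with array weights, 0 with only DJ28 in Cy3, 2 with only DJ28 in Cy5, 16 within arrays 4, 5, 9 and 10 (8 higher, 8 lower), 0 within the other arrays, 6 without arrays 1 and 2, and 15 without arrays 6 and 7. Leaving out single arrays gave 10 to 64 genes, namely 19 for array 2, 20 for array 4, 17 for array 5, 64 for array 8 and 10 each for arrays 9 and 10. Members with a dye effect numbered 1, IRA1, with all 10 arrays apart, with array weights and on genes with a value on every replicate, and 4 with no centring, where the dye term holds the uncentred array medians. RCE1, 1 lipid enzyme, passed the strain test with array weights (0.77, adjusted p = 0.0283). Its dye effect passed with all 10 arrays apart (-0.78, adjusted p = 0.0191), centred on the mean and with robust variance estimation. That dye effect also passed within arrays 1, 2, 3, 6, 7 and 8. Of the cyclase list 0 genes passed the strain test with only DJ28 in Cy3 (PDE2 at -1.75, adjusted p = 0.106) or within arrays 1, 2, 3, 6, 7 and 8 (PDE2 at -2.06, adjusted p = 0.150). Likewise 0 passed on genes with a value on every replicate, where PDE2 has no value on array 1.

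The signs of GPA2, RAS2, GPR1, IRA1 and RGS2 turned under some alternatives, with adjusted p of at least 0.380 there. GPA2 was 0.0015 with all 10 arrays apart, 0.0089 when arrays were centred on genes measured in all of them, 0.018 with only DJ28 in Cy3 and 0.009 within arrays 4, 5, 9 and 10. RAS2 was -0.13 with no centring, -0.22 with only DJ28 in Cy5, -0.0072 with no dye term and -0.017 within arrays 4, 5, 9 and 10. GPR1 was 0.044 with array weights, 0.089 with only DJ28 in Cy3, 0.125 within arrays 4, 5, 9 and 10 and 0.022 without arrays 6 and 7. IRA1 was 0.24 with only DJ28 in Cy3, a fit whose value also holds the dye effect, against -0.16 with all replicates. RGS2 was 0.046 within arrays 4, 5, 9 and 10, against -0.46 with all replicates. The causes were not tested. Without single arrays RAS1 ran from 0.029 to 0.11, RAS2 from -0.0098 to 0.097, IRA1 from -0.24 to -0.094, GPR1 from -0.16 to 0.095, GPA2 from -0.15 to 0.084 and RGS2 from -0.66 to -0.41. The prior with a trend in variance was not run, since the table holds no average intensity, and robust estimation alone replaced it.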
